A study of Homo sapiens with 6 samples.

Results

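A set of 152 genes in LX-2 cells moved one way after FEBJ, which is the extract of Brucea javanica fruit, and the other way after cynaroside, each measured against DMSO. Of these, 86 were higher after FEBJ and lower after cynaroside, and 66 were lower after FEBJ and higher after cynaroside. All were read by the non-coding rows opposite to their exons and not by the rows of the genes themselves. The first kind held CEBPA, IRF1, HEXIM1, JAG1, RIN1 and the linker histone gene H1-10. The lower level of CEBPA after cynaroside rests on 1 library, and the row of HEXIM1 itself was higher after cynaroside. The other kind held genes of the secretory pathway such as MLEC, ERO1A and TMED2, and the cell surface and matrix genes AXL, MRC2 and MMP1. The rows of ERO1A, TMED2 and MRC2 themselves were lower after cynaroside. Of 57 genes of this kind with at least 20 counts in their own rows, 5 moved the same way there in both comparisons.

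The members were chosen by the measured values themselves. In all but 82 of the 1307 genes described below, non-coding rows held more counts than the gene opposite to them. The 1307 were kept by their counts in non-coding rows, so this excess is partly set by that filter. Non-coding rows were summed for each protein-coding gene with opposite exons, where a row overlapped exons of that gene only and by at least 50 bp. Any such row existed for 3002 genes, and 1307 of them held at least 300 counts over the 6 libraries. For these 1307 the counts of the 2 libraries of a group were pooled and divided by the total of the group over the 1307 genes. Pooling gives a library with more counts more weight, and cynaroside libraries 1 and 2 held 733830 and 2146619 counts in the 1307 genes. A gene was taken when one of the ratios to DMSO was at least 1.3 and the other at most 1/1.3. That gave 167 genes, and 15 were left out by name (ZNF, SLC, RPL, RPS, MRP and NDUF symbols and a few further genes), which left 152, or 11.6% of the 1307. As both ratios were used to make the choice, the values of the members below are a description, with no test of that choice. Both comparisons also share the DMSO libraries, so a DMSO value that is high or low by chance moves both ratios of a gene the same way.

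LX-2 is an established human hepatic stellate cell line, here with the genotype WT. The cells were kept for 24 h with DMSO as the vehicle, with FEBJ or with cynaroside, and each of the 3 groups has 2 libraries. Doses are not given in the sources used here, so the extract, which is a mixture, and the compound cannot be matched by dose. Whether a group's libraries are separate cultures is also not stated, so their spread may be technical. An established line stands for stellate cells without the other cells of a liver.

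Stellate cells sit beside the sinusoids of the liver. When activated they divide, become contractile and secrete collagen and proteases, which makes their protein secretion machinery and their cell surface receptors central to fibrosis. Cynaroside is the glucoside of luteolin, a flavone. Brucea javanica fruit is known for quassinoids, bitter terpenoids of which some block protein synthesis.

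Gene rows held 1599000 to 4709317 counts per library, 5.48 to 6.12% of all counts. The 1307 genes took 733830 to 2146619 of them. A level is the number of counts in the opposite rows of a gene per 1000000 counts of this total (CPM). Since row lengths differ, it is compared between libraries and not between genes. The opposite rows overlapped a median of 6.58% of the exon bases of a member, from 0.526 to 51.5%. That of JAG1 overlapped 79 bp, and that of ITGA1, which is named ITGA2-AS1 after another gene, 118 bp. Logged levels of the libraries of a group correlated at 0.985 to 0.989. The 152 members held 4.41 and 4.42% of the total with DMSO, 6.0 and 6.02% with FEBJ and 4.96 and 4.99% with cynaroside. Opposite rows of 6 of 14 stellate or mesenchymal markers held counts, summing to 112222 and 111789 CPM with DMSO, 69619 and 69389.8 with FEBJ and 92862 and 93124 with cynaroside. The highest DMSO mean of any of the 1307 genes was 110408 CPM, so a single gene may make up most of the sum over these markers. The own rows of these markers summed to 2055 and 2041 CPM with DMSO, 197 and 178 with FEBJ and 362 and 288 with cynaroside, with COL1A2, DES, LRAT and PDGFRA at 0, so that they were lower after both treatments. Own rows of hepatocyte markers held 2 and 2 counts with DMSO, 34 and 47 with FEBJ and 0 and 9 with cynaroside. ALB, APOA2 and TTR were at 0. These own rows were highest with FEBJ, like the 86 genes, but the cynaroside libraries lay on both sides of DMSO. Opposite rows of hepatocyte markers held 0 and 1 counts with DMSO, 6 and 16 with FEBJ and 2 and 19 with cynaroside. Per 1000000 counts they were higher after both treatments, unlike the 86 genes. Endothelial markers held 314 to 425 CPM in their own rows, with PECAM1, CDH5 and VWF at 0, and at most 1 count in opposite rows. Opposite rows of white blood cell markers held at most 15 counts. Epithelial markers, of which 2 of 9 had counts in opposite rows, gave 146 and 135 CPM there with DMSO, 1054 and 882 with FEBJ and 84.5 and 51.2 with cynaroside. Their own rows gave 4116 and 4135, 3883 and 3863, and 1434 and 1377, with KRT19 and EPCAM at 0. The summed opposite rows of KRT7, which is left out of the members by name, and CDH1 thus moved with the 86 genes. The own rows of the epithelial list did not rise after FEBJ. The part of these marker lists in the result was not tested. In bulk RNA, fewer cells of a type and less RNA per cell cannot be told apart.

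Across the 1307 genes the median log2 ratio was 0.21 after FEBJ and 0.06 after cynaroside. In the 86 genes it was 1.06 and -0.66, and in the 66 genes -0.82 and 0.60. The choice fixes these signs. The shift after FEBJ was the larger one in 106 of the 152 members and the shift after cynaroside in 46. Among all 1307 genes it was the FEBJ shift in 972 and the cynaroside shift in 335, so nothing is read from this about the members. A change of at least 2-fold in both comparisons was reached by 14 members, 11 of the 86 and 3 of the 66. Of the 1307 genes, 73 reached it in any direction. Scaling matters for genes near the threshold, because TMM scaling lowered the median FEBJ ratio of all 1307 genes by 0.21 on the log2 scale and that of cynaroside by 0.07. No member changed direction under TMM, RLE or a scaling by all gene rows, but only 61 of the 86 and 54 of the 66 passed both ratios under all 4 scalings. By all gene rows, 68 genes were of the first kind and 92 of the second.

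**Figure D1:**
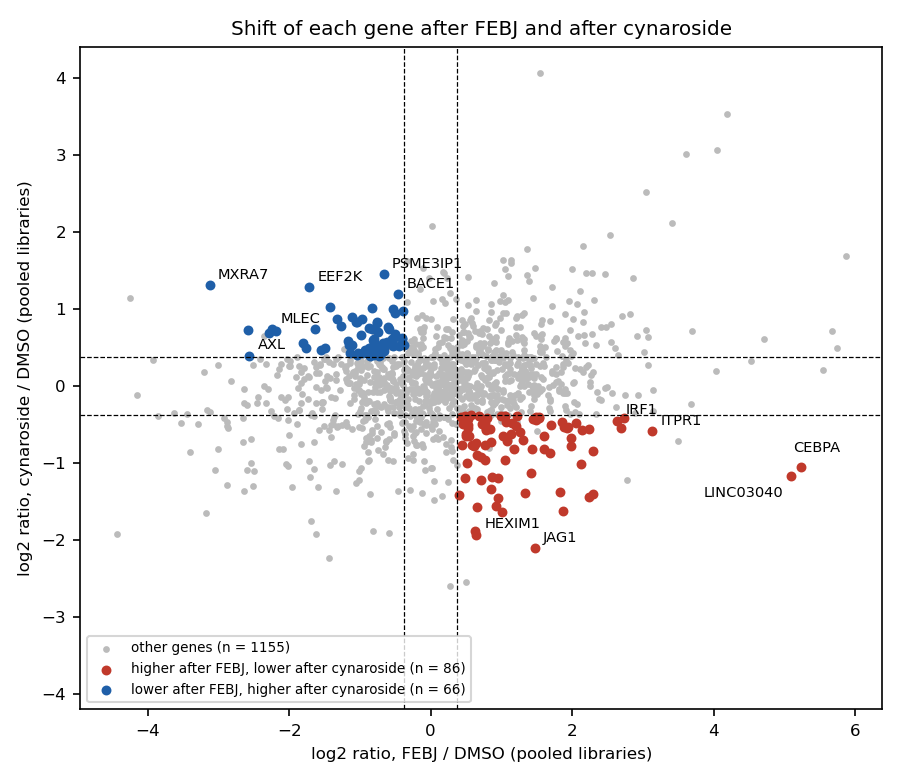
Log2 ratio to DMSO of the pooled libraries after FEBJ (x axis) and after cynaroside (y axis) for the 1307 genes, with members in colour and the ratio of 1.3 as dashed lines. The 86 red genes lie to the lower right and the 66 blue genes to the upper left because the choice puts them there; CEBPA and LINC03040 lie farthest to the right and MXRA7 farthest to the left.

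Level by level, both FEBJ libraries lay above both DMSO libraries in all 86 of the 86 genes (50.7% of the 1307 did so) and below them in 64 of the 66 (36.6% of the 1307). Both cynaroside libraries lay below both DMSO libraries in 77 of the 86 (31.8%) and above them in 62 of the 66 (40.5%). In all, 137 members did not overlap with DMSO in either comparison. Among the 1307 genes 64.6% did not, and 27.9% did not and moved in opposite directions. In the quasi-likelihood test of edgeR, adjusted by Benjamini and Hochberg, 62 of the 86 rose after FEBJ (35.1% of the 1307) and 64 of the 66 fell (40.3%). After cynaroside 66 of the 86 fell (23.8%) and 45 of the 66 rose (21.7%). Called in both comparisons, in opposite directions, were 91 of the 152, 46 and 45 of the 2 kinds, against 12.8% of the 1307. The rule read the same contrasts, so nothing is read from these counts. Below, "called in both" refers to this test. The role groups were formed after the members were known, so nothing is read from their counts either. The paired log2 ratios in parentheses give FEBJ first and cynaroside second, from pooled libraries.

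**Figure D2:**
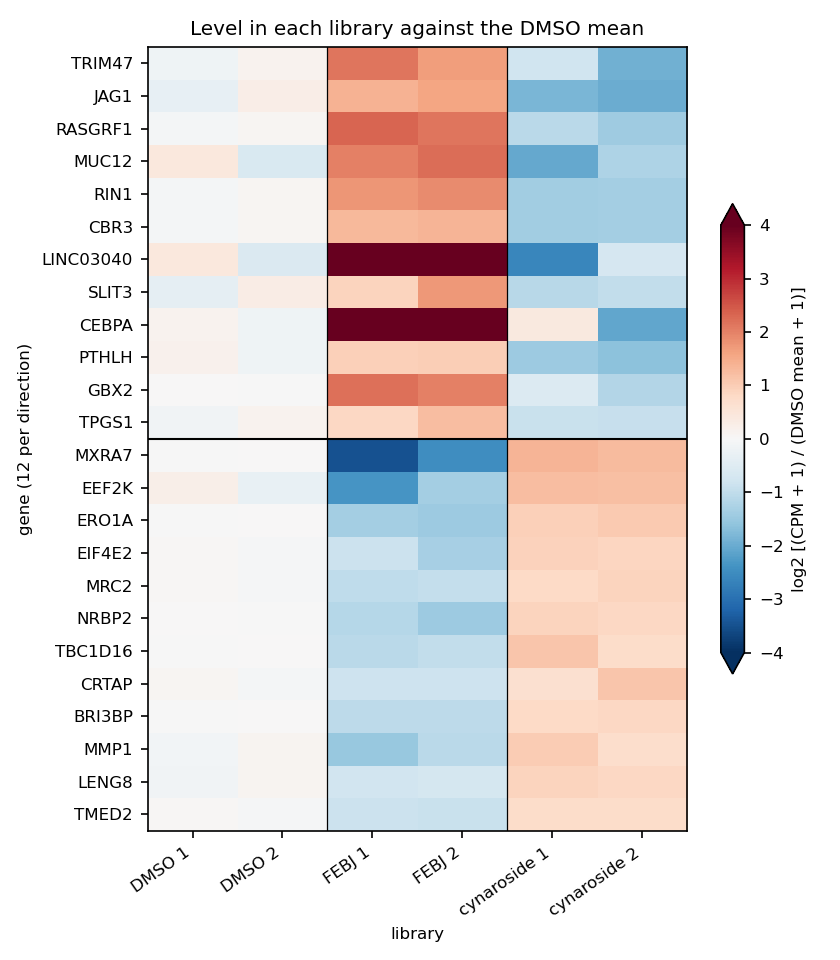
Level of the 12 members with the largest smaller shift in each direction, by library, as log2 of (level + 1) over (DMSO mean + 1); red is above and blue below the DMSO mean. The columns of a group look alike for most genes, and CEBPA, with 11 and 4 counts in the cynaroside libraries, is an exception.

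Among the 86 genes, 14 act in transcription or chromatin, and 10 of these were called in both. CEBPA encodes a transcription factor of adipocytes and hepatocytes. CEBPA, the member with the largest FEBJ shift, gave 12.4 and 9.73 CPM in the DMSO libraries, against 458 and 373 after FEBJ and 14.99 and 1.86 after cynaroside (log2 ratios 5.24 and -1.06). The FEBJ libraries stood far above the others, while the cynaroside libraries straddled DMSO, at 11 and 4 counts against 14 and 16. Its cynaroside log2 ratio was -2.54 without cynaroside library 1 and 0.47 without library 2, so that its lower level after cynaroside rests on 1 library. For HEXIM1, an inhibitor of the elongation kinase P-TEFb, the level was 362 and 337 CPM with DMSO, 498 and 577 with FEBJ and 102 and 87.1 with cynaroside (log2 ratios 0.65 and -1.93). BTG1, an antiproliferative partner of the CCR4-NOT complex, was at 459 and 401 CPM with DMSO, 786 and 759.5 with FEBJ and 177 and 164 with cynaroside (log2 ratios 0.86 and -1.35). ELL, an elongation factor of RNA polymerase II, gave 94.1 and 99.1 CPM in the DMSO libraries, against 119.7 and 152 after FEBJ and 39.5 and 51.2 after cynaroside (log2 ratios 0.52 and -1.01). For these 3 genes both cynaroside libraries were below both DMSO libraries and both FEBJ libraries above, and the cynaroside shift was the larger. The opposite row of HEXIM1 is HEXIM2-AS1. Its own row held 38 and 46 counts with DMSO, 132 and 223 with FEBJ and 289 and 688 with cynaroside (log2 ratios 2.28 and 3.48), and so went the other way after cynaroside.

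Interferon and Krüppel-like regulators had a larger FEBJ shift. For IRF1, an interferon-induced activator, the level was 199.8 and 205 CPM with DMSO, 1283 and 1253 with FEBJ and 129 and 155 with cynaroside (log2 ratios 2.64 and -0.45). KLF11, a zinc finger repressor, was at 85.2 and 74.8 CPM with DMSO, 492 and 546 with FEBJ and 74.9 and 54.04 with cynaroside (log2 ratios 2.73 and -0.41). KLF16, a related factor, gave 234 and 277 CPM in the DMSO libraries, against 455 and 475 after FEBJ and 149.9 and 184 after cynaroside (log2 ratios 0.85 and -0.56). IRF1 and KLF16 separated in both comparisons, whereas 1 cynaroside library of KLF11 lay at the DMSO level. For GBX2, a homeobox factor, the level was 56.8 and 56.5 CPM with DMSO, 267 and 232 with FEBJ and 38.2 and 24.7 with cynaroside (log2 ratios 2.12 and -1.01). LBX2, another homeobox factor, was at 106 and 106 CPM with DMSO, 280.3 and 289 with FEBJ and 61.3 and 59.6 with cynaroside (log2 ratios 1.43 and -0.82). AHR, the aryl hydrocarbon receptor, a ligand-activated factor, gave 78.1 and 51.7 CPM in the DMSO libraries, against 88.8 and 94.9 after FEBJ and 32.7 and 53.1 after cynaroside (log2 ratios 0.57 and -0.38). The homeobox genes separated fully, and AHR, the one of the 86 nearest to the threshold, overlapped with DMSO after cynaroside and was called in neither comparison.

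Chromatin genes made up the rest of the group. For H1-10, a linker histone and the member with the most counts, the level was 3229 and 3067 CPM with DMSO, 8687 and 8487 with FEBJ and 2638 and 2225 with cynaroside (log2 ratios 1.45 and -0.43). EPC1, a subunit of the NuA4 acetyltransferase, was at 177 and 180.0 CPM with DMSO, 640.4 and 650.4 with FEBJ and 131 and 128 with cynaroside (log2 ratios 1.85 and -0.48). INO80, the ATPase of a nucleosome remodeller, gave 116 and 89.4 CPM in the DMSO libraries, against 163 and 196 after FEBJ and 66.8 and 58.2 after cynaroside (log2 ratios 0.86 and -0.73). All 6 values of each gene fell into 3 separate levels, with cynaroside lowest and FEBJ highest. For NSMCE4A, a subunit of the SMC5/6 complex, the level was 220.2 and 244 CPM with DMSO, 504 and 536 with FEBJ and 173 and 167 with cynaroside (log2 ratios 1.16 and -0.48). It showed the same order.

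Promoters of these genes are shown because the TATA box was, of 14 motifs searched, the one whose share in the 86 was farthest above that in the kept genes in percentage points. RefSeq promoters (GRCh38.p14, 250 bases before to 50 after the start) matched 74 of the 86 and 57 of the 66 genes. TATAAA on either strand was present in 8 of the 74 (10.8%) and 3 of the 57 (5.26%), against 5.29% of the 1077 kept genes with a promoter and 11.95% of all 27305 promoters. In 4 of the 8 it lies on the gene's strand, beginning 29 to 33 bases before the start: 33 in BTG1, 30 in CEBPA, 31 in H1-10 and 29 in HEXIM1. Each line gives the bases around it, 5′ to 3′ on the gene's strand, with TATAAA in capitals. A match describes these letters and is not a site or a cause.
BTG1 (chr12:92145854-92145899, minus strand): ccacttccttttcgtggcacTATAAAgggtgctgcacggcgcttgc
CEBPA (chr19:33302539-33302584, minus strand): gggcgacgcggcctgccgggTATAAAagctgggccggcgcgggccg
H1-10 (chr3:129316292-129316337, minus strand): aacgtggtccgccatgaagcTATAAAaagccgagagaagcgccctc
HEXIM1 (chr17:45148426-45148471, plus strand): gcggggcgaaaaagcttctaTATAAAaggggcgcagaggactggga

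The 20 signalling genes were the largest group of the 86, and 14 were called in both. Notch signalling was represented by a ligand and a regulator. JAG1, a Notch ligand, was at 28.4 and 43.8 CPM with DMSO, 96.8 and 109 with FEBJ and 9.54 and 8.39 with cynaroside (log2 ratios 1.47 and -2.11). RITA1, a protein that exports the Notch effector RBPJ from the nucleus, gave 262 and 270.0 CPM in the DMSO libraries, against 397 and 329 after FEBJ and 256 and 183 after cynaroside (log2 ratios 0.42 and -0.41). JAG1 had the lowest cynaroside ratio of all members, with 7 and 18 counts in those libraries against 32 and 72 with DMSO. RITA1 was close to the threshold on either side. For RIN1, an effector of Ras that activates RAB5, the level was 662 and 724 CPM with DMSO, 2371 and 2551 with FEBJ and 262 and 269 with cynaroside (log2 ratios 1.83 and -1.39). RASGRF1, a Ras exchange factor, was at 23.1 and 25.5 CPM with DMSO, 126 and 109.8 with FEBJ and 10.9 and 8.39 with cynaroside (log2 ratios 2.25 and -1.44). DENND2B, an exchange factor for Rab proteins, gave 378 and 255 CPM in the DMSO libraries, against 437 and 474 after FEBJ and 161 and 184 after cynaroside (log2 ratios 0.59 and -0.77). RIN1 and RASGRF1 separated by more than 2-fold in each direction, DENND2B by less. For ARHGEF19, an exchange factor for RhoA, the level was 29.3 and 30.4 CPM with DMSO, 56.9 and 82.2 with FEBJ and 38.2 and 13.5 with cynaroside (log2 ratios 1.26 and -0.60). Here the cynaroside libraries disagreed, and the cynaroside log2 ratio was 0.35 without cynaroside library 2.

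Secreted signals and calcium signalling genes had the same order of groups. PTHLH, parathyroid hormone-related protein, was at 43.5 and 34.05 CPM with DMSO, 75.8 and 77.2 with FEBJ and 13.6 and 11.6 with cynaroside (log2 ratios 1.02 and -1.64). SLIT3, a secreted guidance ligand, gave 21.3 and 34.05 CPM in the DMSO libraries, against 51.9 and 94.9 after FEBJ and 12.3 and 13.5 after cynaroside (log2 ratios 1.42 and -1.13). PTHLH and SLIT3 separated in both comparisons at low counts, with 10 and 25 and 9 and 29 counts after cynaroside. For ITPR1, a receptor channel that releases calcium from the endoplasmic reticulum, the level was 12.4 and 18.8 CPM with DMSO, 125 and 155 with FEBJ and 6.81 and 12.1 with cynaroside (log2 ratios 3.13 and -0.59). PPP3CC, a catalytic subunit of calcineurin, was at 95.02 and 81.5 CPM with DMSO, 274 and 256 with FEBJ and 54.5 and 55.9 with cynaroside (log2 ratios 1.60 and -0.65). NFATC2IP, a partner of the calcineurin target NFATC2, gave 738 and 710.2 CPM in the DMSO libraries, against 1071 and 1124 after FEBJ and 427 and 416 after cynaroside (log2 ratios 0.61 and -0.79). The 3 calcium genes had separate levels in all groups. ITPR1 rests on 5 and 26 counts after cynaroside, and its cynaroside log2 ratio was -1.25 without cynaroside library 2. For GNG2, a G protein gamma subunit, the level was 74.6 and 71.1 CPM with DMSO, 164 and 111 with FEBJ and 36.8 and 30.3 with cynaroside (log2 ratios 0.87 and -1.18). PPP2R3C, a regulatory subunit of protein phosphatase 2A, was at 167 and 149.6 CPM with DMSO, 662 and 594 with FEBJ and 77.7 and 95.96 with cynaroside (log2 ratios 1.99 and -0.78). CABLES1, a CDK-binding adaptor, gave 77.3 and 67.5 CPM in the DMSO libraries, against 135 and 161 after FEBJ and 64.05 and 47.1 after cynaroside (log2 ratios 1.07 and -0.48). GNG2, PPP2R3C and CABLES1 did not overlap with DMSO in either comparison.

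Early response and NF-kB genes completed the signalling group. For PHLDA1, a growth factor induced protein, the level was 1059 and 1121 CPM with DMSO, 1802 and 1785 with FEBJ and 427 and 485 with cynaroside (log2 ratios 0.71 and -1.22). DUSP6, a phosphatase of ERK, was at 127 and 154 CPM with DMSO, 279 and 221 with FEBJ and 99.5 and 94.6 with cynaroside (log2 ratios 0.78 and -0.58). IER5L, an immediate early gene, gave 291 and 296 CPM in the DMSO libraries, against 1155 and 1035 after FEBJ and 181 and 211 after cynaroside (log2 ratios 1.88 and -0.53). All 3 were called in both comparisons and had 3 separate levels. For IKBKE, a kinase of innate immunity and NF-kB, the level was 50.6 and 59.6 CPM with DMSO, 118 and 101 with FEBJ and 31.3 and 21.9 with cynaroside (log2 ratios 0.95 and -1.20). TRAF4, an adaptor of TNF receptor signalling, was at 426 and 401 CPM with DMSO, 679 and 684 with FEBJ and 285 and 294 with cynaroside (log2 ratios 0.73 and -0.50). MALT1, a paracaspase that activates NF-kB, gave 113 and 122 CPM in the DMSO libraries, against 205 and 205 after FEBJ and 68.1 and 95.03 after cynaroside (log2 ratios 0.79 and -0.42). In each of the 3, both treated groups were separate from DMSO.

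RNA processing and ribosome making held 8 genes, of which 5 were called in both. For YJU2, a splicing factor, the level was 39.96 and 34.7 CPM with DMSO, 123 and 115 with FEBJ and 13.6 and 22.4 with cynaroside (log2 ratios 1.68 and -0.87). INTS6, an Integrator subunit, was at 61.3 and 44.99 CPM with DMSO, 94.8 and 104 with FEBJ and 9.54 and 21.9 with cynaroside (log2 ratios 0.96 and -1.46). Both genes separated from DMSO in both comparisons, INTS6 by a wide gap with 7 and 47 counts after cynaroside. Without cynaroside library 2, the cynaroside log2 ratio of INTS6 was -2.44. The own row of INTS6 was higher after cynaroside, with 56 and 142 counts against 39 and 40 with DMSO (log2 ratio 1.27). WDR74, a ribosome assembly factor, gave 434 and 399 CPM in the DMSO libraries, against 1265 and 1258 after FEBJ and 206 and 243 after cynaroside (log2 ratios 1.61 and -0.82). For NVL, an AAA ATPase of large subunit assembly, the level was 85.2 and 85.1 CPM with DMSO, 583 and 523 with FEBJ and 79.04 and 50.8 with cynaroside (log2 ratios 2.68 and -0.55). POLR1H, a subunit of RNA polymerase I, was at 108 and 136 CPM with DMSO, 233 and 316 with FEBJ and 68.1 and 71.7 with cynaroside (log2 ratios 1.17 and -0.82). In all 3 the FEBJ libraries were at least 1.5 times the DMSO level and the cynaroside libraries below it. PCF11, a factor of transcript cleavage and termination, gave 54.2 and 41.3 CPM in the DMSO libraries, against 139 and 162 after FEBJ and 32.7 and 32.6 after cynaroside (log2 ratios 1.71 and -0.51). For DDX20, an SMN complex helicase, the level was 19.5 and 33.4 CPM with DMSO, 78.8 and 142 with FEBJ and 12.3 and 22.4 with cynaroside (log2 ratios 2.06 and -0.49). The cynaroside libraries of DDX20 overlapped with DMSO, its log2 ratio was 0.02 without DMSO library 2, and its cynaroside log2 ratio was -1.18 without cynaroside library 2. PCF11 has more counts in its own row, 91 and 141 counts with DMSO, 72 and 68 with FEBJ and 129 and 388 with cynaroside, which moved the other way in both comparisons.

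Genes of cell death, autophagy and ubiquitin numbered 10, and 3 of them were called in both. CFLAR, an inhibitor of caspase 8 activation, was at 187 and 209 CPM with DMSO, 260.4 and 294 with FEBJ and 79.04 and 89.9 with cynaroside (log2 ratios 0.49 and -1.20). XAF1, an antagonist of the caspase inhibitor XIAP, gave 115 and 131 CPM in the DMSO libraries, against 165 and 193 after FEBJ and 77.7 and 79.7 after cynaroside (log2 ratios 0.54 and -0.65). For PAWR, a proapoptotic protein, the level was 279 and 218 CPM with DMSO, 344 and 356 with FEBJ and 198 and 175 with cynaroside (log2 ratios 0.53 and -0.43). The inhibitor and the pro-death genes all fell after cynaroside, and none of the 3 was called after FEBJ (edgeR adjusted p of 0.319 for CFLAR, 0.277 for XAF1 and 0.191 for PAWR). CFLAR also has the pseudogene row IMPDH1P10 among its opposite rows, and its own row held 131 and 186 counts with DMSO, 579 and 907 with FEBJ and 76 and 201 with cynaroside. TRIM47, a ubiquitin ligase and the member with the largest smaller shift, was at 44.4 and 55.9 CPM with DMSO, 223 and 161 with FEBJ and 28.6 and 12.6 with cynaroside (log2 ratios 1.87 and -1.62). TRIM13, a ubiquitin ligase of the endoplasmic reticulum, gave 50.6 and 63.2 CPM in the DMSO libraries, against 79.8 and 99.9 after FEBJ and 19.1 and 19.6 after cynaroside (log2 ratios 0.66 and -1.58). For NEDD4L, a ubiquitin ligase of membrane channels, the level was 133 and 128 CPM with DMSO, 169.6 and 193 with FEBJ and 55.9 and 94.1 with cynaroside (log2 ratios 0.49 and -0.63). The cynaroside log2 ratio of TRIM47 was -0.84 and that of NEDD4L -1.22 without cynaroside library 2, and the order of the groups stayed. ATG101, a subunit of the ULK1 autophagy complex, was at 801 and 761 CPM with DMSO, 1732 and 1519.7 with FEBJ and 533 and 612 with cynaroside (log2 ratios 1.05 and -0.39). UVRAG, a partner of Beclin 1, gave 39.96 and 60.8 CPM in the DMSO libraries, against 98.8 and 128 after FEBJ and 35.4 and 33.5 after cynaroside (log2 ratios 1.14 and -0.62). For BORCS6, a subunit of the lysosome-positioning BORC complex, the level was 226 and 159.9 CPM with DMSO, 493 and 576 with FEBJ and 136 and 142 with cynaroside (log2 ratios 1.53 and -0.41). All 3 had separate levels in both comparisons. UFC1, the conjugating enzyme of UFM1, was at 155 and 169 CPM with DMSO, 281 and 247 with FEBJ and 159 and 112 with cynaroside (log2 ratios 0.68 and -0.39). One cynaroside library of UFC1 lay within the DMSO range.

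Lipid and other metabolism held 10 genes, of which 6 were called in both. CHKA, a choline kinase of phosphatidylcholine synthesis, gave 357 and 381 CPM in the DMSO libraries, against 1762 and 1741 after FEBJ and 301 and 234 after cynaroside (log2 ratios 2.24 and -0.56). For DAGLA, a diacylglycerol lipase of endocannabinoid synthesis, the level was 139 and 156 CPM with DMSO, 353 and 344 with FEBJ and 113 and 114 with cynaroside (log2 ratios 1.22 and -0.39). ABHD11, a mitochondrial serine hydrolase, was at 20.4 and 24.3 CPM with DMSO, 108 and 77.2 with FEBJ and 17.7 and 13.04 with cynaroside (log2 ratios 1.98 and -0.68). CHKA was over 4-fold higher after FEBJ with libraries that nearly coincided, and its cynaroside shift was small. Its own row held 172 and 309 counts with DMSO, 155 and 223 with FEBJ and 299 and 893 with cynaroside. That own row (log2 ratios -0.15 and 1.25) moved the other way in both comparisons. CBR3, a carbonyl reductase, gave 567 and 632 CPM in the DMSO libraries, against 1482 and 1554 after FEBJ and 230.3 and 231 after cynaroside (log2 ratios 1.33 and -1.39). For GLYCTK, glycerate kinase, the level was 129.6 and 130.1 CPM with DMSO, 239 and 252 with FEBJ and 27.3 and 49.8 with cynaroside (log2 ratios 0.92 and -1.56). PHKA2, the liver regulatory subunit of phosphorylase kinase, was at 313 and 335 CPM with DMSO, 532 and 582 with FEBJ and 228 and 218 with cynaroside (log2 ratios 0.78 and -0.56). CBR3 separated evenly in both directions. GLYCTK had 20 and 107 counts after cynaroside, and its log2 ratio there was -2.25 without cynaroside library 2. PGGT1B, a subunit of a protein prenyltransferase, gave 45.3 and 45.6 CPM in the DMSO libraries, against 78.8 and 70.8 after FEBJ and 32.7 and 20.96 after cynaroside (log2 ratios 0.71 and -0.92). For ADI1, a dioxygenase of methionine salvage, the level was 401 and 376 CPM with DMSO, 519 and 559.7 with FEBJ and 312 and 289 with cynaroside (log2 ratios 0.49 and -0.39). LYPLAL1, a lysophospholipase-like protein, was at 26.6 and 35.3 CPM with DMSO, 96.8 and 84.3 with FEBJ and 29.98 and 20.96 with cynaroside (log2 ratios 1.49 and -0.45). LYPLAL1 overlapped with DMSO after cynaroside and the others did not. MYG1, an exonuclease, gave 1.21 and -0.53 as log2 ratios.

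Cytoskeleton and cell surface genes numbered 7, with 3 called in both. MUC12, a transmembrane mucin, gave 34.6 and 16.4 CPM in the DMSO libraries, against 107 and 124 after FEBJ and 5.45 and 10.2 after cynaroside (log2 ratios 2.29 and -1.40). For ITGA1, the integrin subunit that binds collagen with ITGB1, the level was 31.1 and 19.5 CPM with DMSO, 93.8 and 92.1 with FEBJ and 10.9 and 18.6 with cynaroside (log2 ratios 1.94 and -0.54). MYO5B, a myosin motor of recycling endosomes, was at 40.8 and 58.4 CPM with DMSO, 80.8 and 77.9 with FEBJ and 25.9 and 9.78 with cynaroside (log2 ratios 0.63 and -1.88). These had few counts after cynaroside (4 and 22, 8 and 40, and 19 and 21). Without cynaroside library 2 their cynaroside log2 ratios were -2.13, -1.15 and -0.98. KIF22, a chromosome-binding kinesin, gave 608 and 610.5 CPM in the DMSO libraries, against 958 and 953 after FEBJ and 304 and 386 after cynaroside (log2 ratios 0.65 and -0.74). For TPGS1, a subunit of the tubulin polyglutamylase complex, the level was 92.4 and 113 CPM with DMSO, 182 and 241 with FEBJ and 54.5 and 53.6 with cynaroside (log2 ratios 1.05 and -0.96). EML2, a microtubule-binding protein, was at 31.1 and 18.2 CPM with DMSO, 79.8 and 95.6 with FEBJ and 20.4 and 14.4 with cynaroside (log2 ratios 1.92 and -0.55). KIF22 and TPGS1 separated in both comparisons. The cynaroside libraries of EML2 overlapped with DMSO. SERPINB8, an intracellular serine protease inhibitor, gave 28.4 and 62.02 CPM in the DMSO libraries, against 73.8 and 64.5 after FEBJ and 29.98 and 31.2 after cynaroside (log2 ratios 0.50 and -0.65). Its DMSO libraries differed by more than 2-fold and spanned the cynaroside libraries. Without DMSO library 2 its log2 ratios were 1.27 and 0.12, so it no longer moved oppositely.

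Mitochondrial genes numbered 6, with 2 called in both. For SCO1, a copper chaperone of cytochrome c oxidase, the level was 228 and 207 CPM with DMSO, 439.9 and 439 with FEBJ and 131 and 138 with cynaroside (log2 ratios 1.03 and -0.66). COA6, another assembly factor of that enzyme, was at 139 and 103 CPM with DMSO, 189.5 and 156 with FEBJ and 68.1 and 84.3 with cynaroside (log2 ratios 0.53 and -0.55). LIPT2, a lipoyltransferase, gave 28.4 and 36.5 CPM in the DMSO libraries, against 143 and 149 after FEBJ and 12.3 and 25.6 after cynaroside (log2 ratios 2.14 and -0.58). SCO1 was even between libraries. LIPT2 rests on 9 and 55 counts after cynaroside and had a cynaroside log2 ratio of -1.44 without cynaroside library 2. LETM2, an inner membrane protein, gave log2 ratios of 2.29 and -0.84, CCDC90B gave 0.77 and -0.77, and PHB2, a prohibitin, gave 0.76 and -0.48 and was called in neither comparison. The other 11 genes of the 86 have less settled roles. For LINC03040, annotated as protein-coding in GENCODE release 29 under the name C6orf223, the level was 7.10 and 3.04 CPM with DMSO, 169.6 and 153 with FEBJ and 0 and 2.80 with cynaroside (log2 ratios 5.09 and -1.17). It was almost absent without FEBJ, with 8 and 5 counts with DMSO, 170 and 216 with FEBJ and 0 and 6 with cynaroside. Its FEBJ log2 ratio was 5.72 without DMSO library 1 and 4.49 without DMSO library 2, and its cynaroside ratio -0.55 and -1.77. BZW2, a regulator of translation initiation, was at 181 and 204 CPM with DMSO, 256 and 258 with FEBJ and 81.8 and 69.9 with cynaroside (log2 ratios 0.40 and -1.42). UXT, a prefoldin-like cofactor, gave 492 and 454 CPM in the DMSO libraries, against 629 and 644 after FEBJ and 278 and 275 after cynaroside (log2 ratios 0.44 and -0.77). For TMEM199, a V-ATPase assembly factor, the level was 330.3 and 345 CPM with DMSO, 713 and 725 with FEBJ and 222 and 199.8 with cynaroside (log2 ratios 1.09 and -0.72). The ratios of BZW2 and UXT were farther from DMSO after cynaroside and that of TMEM199 after FEBJ, each with separate groups. BZW2 and UXT were called after cynaroside only. The remaining log2 ratios were 0.77 and -0.97 for TTC7A, 0.65 and -0.90 for TTC39C, 1.53 and -0.42 for AAMDC, 1.49 and -0.41 for C15orf39, 0.46 and -0.49 for KCTD14 and 0.53 and -0.50 for TMEM44. TMEM62 was 2.46-fold higher after FEBJ and 1.62-fold lower after cynaroside.

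**Figure D3:**
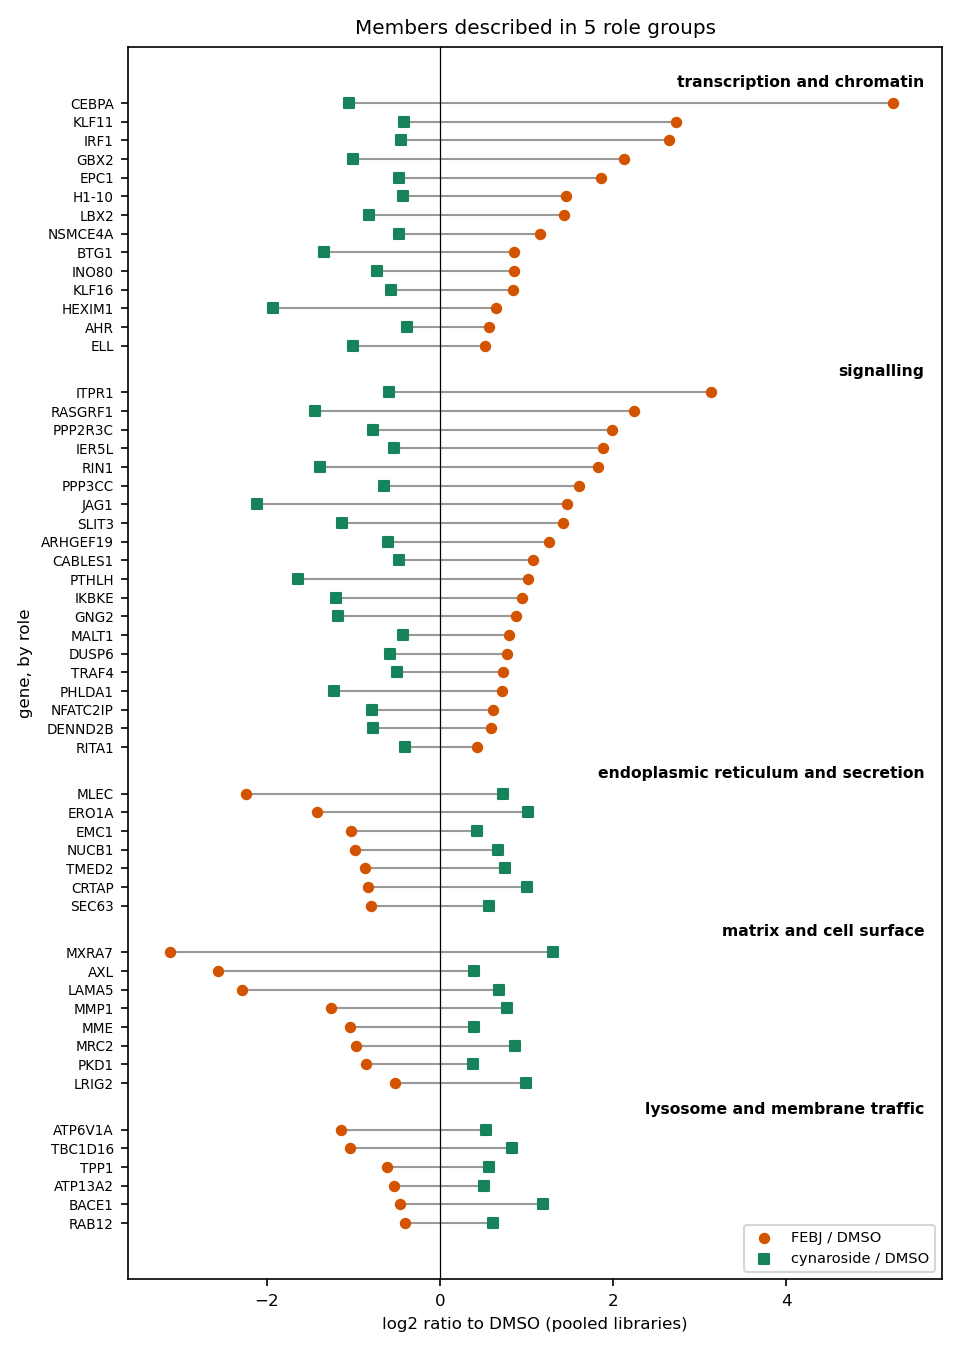
Log2 ratio to DMSO after FEBJ (orange circles) and after cynaroside (green squares) for the members of 5 role groups that are described by name, formed after the members were known. The upper 2 groups belong to the 86 genes and the lower 3 to the 66; MLEC, AXL, LAMA5 and MXRA7 are the farthest to the left, and JAG1 has the lowest cynaroside value.

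Among the 66 genes that were lower after FEBJ and higher after cynaroside, the 8 genes of the endoplasmic reticulum and secretion were all called in both comparisons. The choice of members favours such calls, which 45 of the 66 had, against 12.8% of the 1307 called in opposite directions. The 8 genes span the route from translocation to export. SEC63, a subunit of the translocon machinery, was at 182 and 198 CPM with DMSO, 118 and 105 with FEBJ and 315 and 274 with cynaroside (log2 ratios -0.80 and 0.57). EMC1, a subunit of the membrane protein insertase EMC, gave 249.5 and 254 CPM in the DMSO libraries, against 137 and 115 after FEBJ and 312 and 349.9 after cynaroside (log2 ratios -1.03 and 0.43). For MLEC, a lectin of the reticulum that binds new glycoproteins, the level was 3229.7 and 3490.1 CPM with DMSO, 687 and 733 with FEBJ and 5527 and 5648 with cynaroside (log2 ratios -2.25 and 0.73). MLEC had the largest FEBJ shift of the group, and in all 3 genes each group was apart from the others. ERO1A, the oxidase that drives disulfide bond formation, was at 622 and 638 CPM with DMSO, 242 and 232 with FEBJ and 1216 and 1303 with cynaroside (log2 ratios -1.42 and 1.02). CRTAP, a subunit of the collagen prolyl 3-hydroxylase complex, gave 234 and 211 CPM in the DMSO libraries, against 124 and 125 after FEBJ and 346 and 477 after cynaroside (log2 ratios -0.83 and 1.01). ERO1A was more than 2-fold away from DMSO in both directions. For TMED2, a cargo receptor of early secretory vesicles, the level was 1544 and 1437 CPM with DMSO, 816 and 808 with FEBJ and 2507 and 2499 with cynaroside (log2 ratios -0.87 and 0.76). NUCB1, a calcium-binding Golgi protein, was at 1043 and 1029 CPM with DMSO, 504 and 536 with FEBJ and 1624 and 1646 with cynaroside (log2 ratios -0.99 and 0.67). The libraries of a group nearly coincided for both genes. The own rows had fewer counts and did not share the rise: that of MLEC held 69 and 152 counts with DMSO, 29 and 13 with FEBJ and 5 and 38 with cynaroside, and that of TMED2 117 and 109 counts with DMSO, 11 and 15 with FEBJ and 20 and 14 with cynaroside.

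Matrix and cell surface held 8 genes, of which 7 were called in both. AXL, a receptor tyrosine kinase for GAS6, gave 1914 and 1988 CPM in the DMSO libraries, against 319 and 339 after FEBJ and 2546 and 2575 after cynaroside (log2 ratios -2.57 and 0.39). For MRC2, an endocytic collagen receptor, the level was 868 and 829 CPM with DMSO, 422 and 440.0 with FEBJ and 1464 and 1563 with cynaroside (log2 ratios -0.97 and 0.86). MMP1, interstitial collagenase, was at 138 and 161 CPM with DMSO, 51.9 and 70.8 with FEBJ and 303 and 245 with cynaroside (log2 ratios -1.26 and 0.78). AXL fell far more after FEBJ than it rose after cynaroside, while MRC2 and MMP1 shifted more evenly. The opposite row of MMP1 is the pseudogene WTAPP1, so reads of its parent gene may be among them. MXRA7, a matrix remodelling associated protein, gave 31.97 and 32.8 CPM in the DMSO libraries, against 2.00 and 4.96 after FEBJ and 84.5 and 79.2 after cynaroside (log2 ratios -3.12 and 1.31). For LAMA5, a laminin alpha chain, the level was 133 and 86.3 CPM with DMSO, 14.96 and 26.2 with FEBJ and 169 and 169.6 with cynaroside (log2 ratios -2.29 and 0.68). PKD1, polycystin 1, was at 645 and 633 CPM with DMSO, 366 and 342 with FEBJ and 935 and 795 with cynaroside (log2 ratios -0.86 and 0.38). MXRA7 had 2 and 7 counts after FEBJ, and its FEBJ log2 ratio was -4.03 without FEBJ library 2. For LAMA5 the own row held far more counts, 2909 and 4289 counts with DMSO, 7181 and 10035 with FEBJ and 1580 and 5345 with cynaroside (log2 ratios 1.46 and -0.11), and moved the other way in both comparisons; that of MXRA7 also did (log2 ratios 0.24 and -0.56). MME, the membrane peptidase neprilysin, gave 105 and 72.96 CPM in the DMSO libraries, against 31.9 and 48.9 after FEBJ and 87.2 and 122 after cynaroside (log2 ratios -1.04 and 0.40). For LRIG2, a membrane protein with leucine-rich repeats, the level was 57.7 and 79.04 CPM with DMSO, 41.9 and 53.8 with FEBJ and 114 and 149 with cynaroside (log2 ratios -0.53 and 0.99). One cynaroside library of MME lay within the DMSO range, and LRIG2 has a pseudogene among its opposite rows.

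Lysosome and membrane traffic held 6 genes, of which 5 were called in both. TPP1, a lysosomal peptidase, was at 228 and 271 CPM with DMSO, 143 and 181 with FEBJ and 354 and 382 with cynaroside (log2 ratios -0.62 and 0.56). ATP6V1A, the catalytic subunit of the V-ATPase, gave 38.2 and 41.95 CPM in the DMSO libraries, against 16.96 and 19.1 after FEBJ and 58.6 and 58.2 after cynaroside (log2 ratios -1.15 and 0.53). For ATP13A2, a lysosomal polyamine transporter, the level was 235 and 215 CPM with DMSO, 157 and 152 with FEBJ and 328 and 314 with cynaroside (log2 ratios -0.53 and 0.51). TPP1 and ATP13A2 separated in both comparisons, as did ATP6V1A with 17 to 125 counts. BACE1, the beta-secretase, was at 658 and 736 CPM with DMSO, 489.8 and 527 with FEBJ and 1537 and 1626 with cynaroside (log2 ratios -0.46 and 1.19). TBC1D16, a GTPase-activating protein for Rab proteins, gave 153 and 159 CPM in the DMSO libraries, against 72.8 and 77.9 after FEBJ and 337 and 259 after cynaroside (log2 ratios -1.04 and 0.83). For RAB12, a small GTPase of endosomes, the level was 555 and 566 CPM with DMSO, 422 and 423 with FEBJ and 868 and 853 with cynaroside (log2 ratios -0.41 and 0.61). BACE1 was more than 2-fold higher after cynaroside and differed less after FEBJ.

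Transcription and chromatin held 10 of the 66 genes, and 6 were called in both. CBX7, a Polycomb chromodomain protein, was at 266 and 291 CPM with DMSO, 251 and 160.1 with FEBJ and 536 and 539 with cynaroside (log2 ratios -0.50 and 0.94). PCGF3, another Polycomb subunit, gave 494 and 399 CPM in the DMSO libraries, against 203 and 188 after FEBJ and 650.0 and 657 after cynaroside (log2 ratios -1.18 and 0.58). For YY1, a zinc finger factor with activating and repressing roles, the level was 39.96 and 51.7 CPM with DMSO, 25.9 and 26.9 with FEBJ and 47.7 and 88.98 with cynaroside (log2 ratios -0.82 and 0.74). The ratio of CBX7 was farther from DMSO after cynaroside and that of PCGF3 after FEBJ. The cynaroside libraries of YY1 overlapped with DMSO, and without cynaroside library 2 its cynaroside log2 ratio was 0.02. PURB, a purine-rich element binding protein, was at 149 and 119 CPM with DMSO, 18.95 and 36.1 with FEBJ and 239.8 and 206 with cynaroside (log2 ratios -2.18 and 0.71). RFX5, an activator of MHC class II genes, gave 244 and 263 CPM in the DMSO libraries, against 163 and 172 after FEBJ and 409 and 443 after cynaroside (log2 ratios -0.60 and 0.77). For TCFL5, a basic helix-loop-helix factor, the level was 78.1 and 70.5 CPM with DMSO, 17.96 and 27.6 with FEBJ and 165 and 108 with cynaroside (log2 ratios -1.64 and 0.73). PURB and TCFL5 had few counts after FEBJ, 19 and 51 and 18 and 39. Without FEBJ library 2 the FEBJ log2 ratio of PURB was -2.79. MLLT6, a PHD finger protein, was at 804 and 834 CPM with DMSO, 461 and 524 with FEBJ and 1021 and 1091 with cynaroside (log2 ratios -0.72 and 0.38). SRCAP, the ATPase of a histone exchange complex, gave 61.3 and 64.5 CPM in the DMSO libraries, against 55.9 and 43.2 after FEBJ and 116 and 82.5 after cynaroside (log2 ratios -0.38 and 0.53). For TASOR2, a relative of the HUSH subunit TASOR, the level was 98.6 and 83.3 CPM with DMSO, 18.95 and 31.9 with FEBJ and 89.9 and 138 with cynaroside (log2 ratios -1.76 and 0.49). One cynaroside library of TASOR2 overlapped with DMSO, and SRCAP lay near the threshold. EID2B gave log2 ratios of -0.80 and 0.40.

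The CRE motif TGACGTCA, bound by CREB and ATF factors, occurred in 5 of the 57 promoters of these 66 genes that matched RefSeq (8.77%) and in 1 of the 74 of the other kind (1.35%), against 3.53% of the 1077 kept genes and 1.98% of all promoters. The motif reads the same on both strands. In MDN1 it lies after the start, and the other 4 windows are shown, 5′ to 3′ on the gene's strand with the motif in capitals, as those that carry it before the start (GRCh38.p14, RefSeq). It begins 74 bases before the start in EFCAB14, 25 in LENG8, 52 in OCIAD1 and 103 in PURB.
EFCAB14 (chr1:46719161-46719208, minus strand): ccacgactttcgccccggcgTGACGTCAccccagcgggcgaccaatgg
LENG8 (chr19:54449154-54449198, plus strand): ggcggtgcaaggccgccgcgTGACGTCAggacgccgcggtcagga
OCIAD1 (chr4:48831016-48831063, plus strand): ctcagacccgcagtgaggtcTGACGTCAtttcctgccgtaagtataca
PURB (chr7:44885606-44885653, minus strand): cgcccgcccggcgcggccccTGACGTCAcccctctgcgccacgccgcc
The NRF1 motif was in 15.8% of the promoters of the 66 and 5.41% of the 86, against 12.3% of the kept genes, and the heat shock element GAANNTTC in 0 of 57 and 4.05%, against 3.99%. The median GC content was 62.3% in promoters of the 86, 66.0% in those of the 66 and 66.7% in the kept genes, and its part in the motif shares was not tested. The 4 motifs given here were chosen from the 14 after their values were seen.

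Translation and RNA held 7 genes, with 4 called in both. EEF2K, the kinase that inhibits elongation factor 2, was at 47.1 and 32.2 CPM with DMSO, 6.98 and 14.9 with FEBJ and 94.03 and 92.7 with cynaroside (log2 ratios -1.72 and 1.28). EIF4E2, a cap-binding repressor of translation, gave 423 and 404 CPM in the DMSO libraries, against 225 and 166 after FEBJ and 781 and 757 after cynaroside (log2 ratios -1.11 and 0.89). For LENG8, a leukocyte receptor cluster member, the level was 95.9 and 114 CPM with DMSO, 60.9 and 64.5 with FEBJ and 195 and 185 with cynaroside (log2 ratios -0.76 and 0.81). EEF2K was over 3-fold lower after FEBJ with 7 and 21 counts, and its FEBJ log2 ratio was -2.45 without FEBJ library 2. The microRNA row MIR5001 is among the opposite rows of EIF4E2. ALKBH5, an RNA demethylase, was at 963 and 1030.0 CPM with DMSO, 452 and 456 with FEBJ and 1286 and 1373 with cynaroside (log2 ratios -1.14 and 0.43). MDN1, the AAA ATPase of large subunit assembly, gave 63.9 and 55.9 CPM in the DMSO libraries, against 29.9 and 25.5 after FEBJ and 77.7 and 88.5 after cynaroside (log2 ratios -1.11 and 0.53). For CPSF6, a subunit of cleavage factor I, the level was 58.6 and 37.7 CPM with DMSO, 19.95 and 8.50 with FEBJ and 85.9 and 61.96 with cynaroside (log2 ratios -1.80 and 0.56). All 3 had separate groups. CPSF6 had 20 and 12 counts after FEBJ, its FEBJ log2 ratio was -2.44 and -1.21 with 1 FEBJ library left out, and the microRNA row MIR1279 is among its opposite rows. PNISR, an arginine and serine rich protein, gave -0.80 and 0.60. Signalling held 7 genes, with 5 called in both. NRBP2, a pseudokinase, was at 165 and 162 CPM with DMSO, 72.8 and 59.5 with FEBJ and 304 and 294 with cynaroside (log2 ratios -1.33 and 0.86). ARRB1, beta-arrestin 1, gave 63.05 and 63.8 CPM in the DMSO libraries, against 42.9 and 41.8 after FEBJ and 121 and 101 after cynaroside (log2 ratios -0.59 and 0.74). For TAB3, an adaptor of the kinase TAK1, the level was 122 and 189 CPM with DMSO, 131 and 71.6 with FEBJ and 267 and 261 with cynaroside (log2 ratios -0.75 and 0.70). NRBP2 and ARRB1 separated in both comparisons, whereas 1 FEBJ library of TAB3 lay at the DMSO level. The remaining signalling genes gave log2 ratios of -0.87 and 0.49 for CDC42BPB, a kinase of the cytoskeleton, -0.80 and 0.45 for the adaptor NCK2, -0.68 and 0.55 for PHLPP2, a phosphatase of AKT, and -0.93 and 0.46 for BNIP2.

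Metabolism, peroxisomes and mitochondria held 6 genes, with 3 called in both. LPIN2, a phosphatidate phosphatase, was at 444 and 491 CPM with DMSO, 285 and 289.8 with FEBJ and 668 and 665 with cynaroside (log2 ratios -0.71 and 0.50). ADPGK, an ADP-dependent glucokinase, gave 260.2 and 268 CPM in the DMSO libraries, against 109.7 and 156 after FEBJ and 283 and 379 after cynaroside (log2 ratios -0.95 and 0.42). For PEX26, a peroxisomal import factor, the level was 220.2 and 198 CPM with DMSO, 107 and 125 with FEBJ and 337 and 305 with cynaroside (log2 ratios -0.82 and 0.59). The 3 genes did not overlap with DMSO in either comparison. RHOT1, a GTPase of mitochondrial transport, gave -0.80 and 0.55, PDXDC1, a decarboxylase-like protein, -0.50 and 0.68 and OCIAD1 -0.40 and 0.62. Of 4 genes of ubiquitin, proteasome and cell death, 3 were called in both. PSME3IP1, an interactor of the proteasome activator PSME3, was at 63.9 and 102 CPM with DMSO, 69.8 and 43.9 with FEBJ and 281 and 221 with cynaroside (log2 ratios -0.66 and 1.45). API5, an inhibitor of apoptosis, gave 788 and 845 CPM in the DMSO libraries, against 493 and 617 after FEBJ and 1180.1 and 1269.9 after cynaroside (log2 ratios -0.54 and 0.60). PSME3IP1 had the highest cynaroside ratio of all members, and 1 FEBJ library lay in the DMSO range. The ubiquitin ligase RNF6 gave -0.39 and 0.54 and FEM1B, a substrate receptor, -0.45 and 0.51, the latter called in neither comparison. None of the 4 cytoskeletal genes was called in both, as their cynaroside shifts missed the threshold. The log2 ratios were -1.55 and 0.47 for ninein, NIN, -0.78 and 0.49 for MYOM1, -0.65 and 0.46 for adducin 3, ADD3, and -0.65 and 0.48 for the dynein chain DNAL1. The FEBJ log2 ratio of NIN was -2.18 without FEBJ library 1. Of the other 6 genes, 4 were called in both. For BRI3BP, a membrane protein bound by BRI3, the level was 701 and 703 CPM with DMSO, 338 and 339 with FEBJ and 1219.6 and 1248 with cynaroside (log2 ratios -1.05 and 0.82). NXPE3, a neurexophilin family member, was at 137 and 124 CPM with DMSO, 19.95 and 22.7 with FEBJ and 251 and 202 with cynaroside (log2 ratios -2.58 and 0.73). EFCAB14, an EF-hand protein, gave 158 and 173 CPM in the DMSO libraries, against 36.9 and 75.1 after FEBJ and 243 and 231 after cynaroside (log2 ratios -1.49 and 0.49). The libraries of BRI3BP nearly coincided within each group. The FEBJ log2 ratio of EFCAB14 was -2.18 without FEBJ library 2. TMEM102 gave -0.76 and 0.82, NBPF15 -0.54 and 0.61 and RPRML -0.38 and 0.98, the latter pair with pseudogene rows.

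Whether the own row of a gene moved with its opposite rows was counted in the 133 members with at least 20 counts there. It moved the same way in both comparisons in 37 of them (27.8%), against 31.0% of the kept genes. The share was 42.1% (32 of 76) among the genes higher after FEBJ and 8.77% (5 of 57) among the others. In 17 of the 133, the own row went the other way in both comparisons, against 249 of 1166 kept genes. These were 6 of the 76, among them CHKA, PCF11, LETM2 and LIPT2, and 11 of the 57. After cynaroside the own rows of all kept genes were lower by a median log2 ratio of -1.08, so that a gene higher in its opposite rows went against that shift. After FEBJ the own row moved with the opposite rows in 67.7% of the members and 60.1% of the kept genes. The own row held more counts than the opposite rows in 9 members, CFLAR, YY1, MDN1, EML2, LAMA5, PCF11, PDXDC1, MXRA7 and TRIM13, or 5.92%, against 6.27% of the kept genes. Besides those given above, the own row of TRIM13 held 86 and 107 counts with DMSO, 125 and 152 with FEBJ and 143 and 367 with cynaroside (log2 ratios 0.72 and 1.35), higher after cynaroside where the opposite rows were lower. That of YY1 held 116 and 166 counts with DMSO, 196 and 326 with FEBJ and 53 and 134 with cynaroside (log2 ratios 1.09 and -0.65) and went the other way in both comparisons. The own row log2 ratios were 1.06 and 0.03 for MDN1, 0.57 and 0.55 for EML2, -0.28 and -0.19 for PDXDC1 and 2.43 and -0.25 for CFLAR. MDN1 thus went against its opposite rows after FEBJ, EML2 and PDXDC1 did after cynaroside, and CFLAR in neither. A pseudogene was among the opposite rows of 10 members, CFLAR, POLR1H, TCFL5, INTS6, ABHD11, RPRML, MMP1, LRIG2, PEX26 and NBPF15, and a microRNA in 2. The strand setting of the counting is not stated, so reads of a gene and of its antisense partner cannot be told apart and each member's values stay uncertain to that extent.

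**Figure D4:**
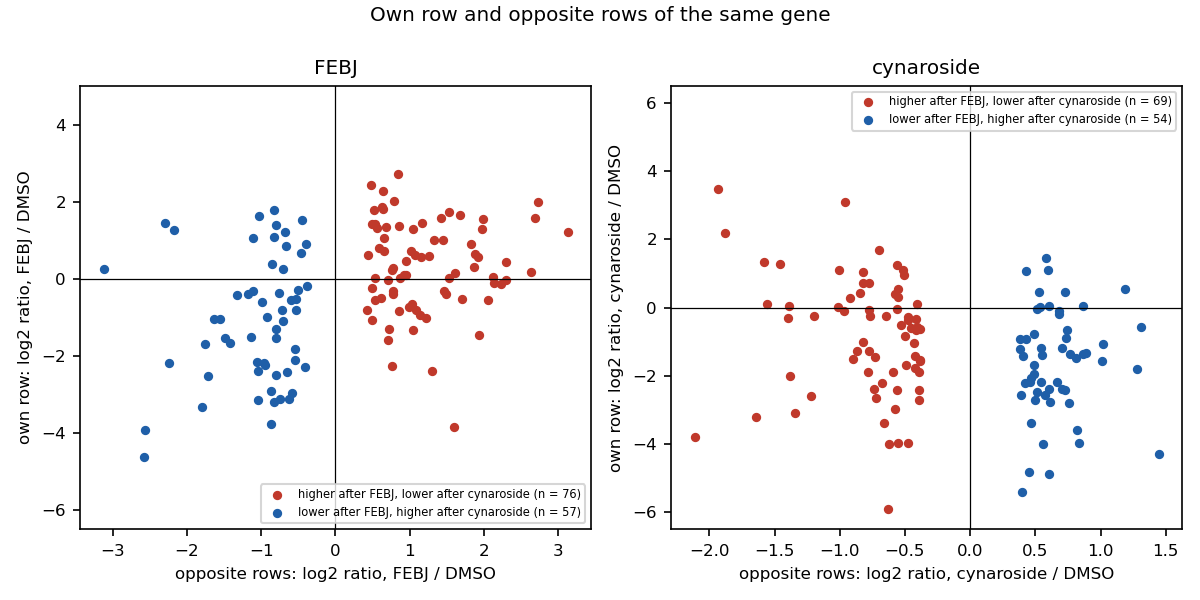
Log2 ratio to DMSO of the own row (y axis) against that of the opposite rows (x axis), after FEBJ (left) and after cynaroside (right), for members with at least 20 counts in the own row; 7 of the 86 and 3 of the 66 with an own row at 0 after cynaroside are not drawn. After cynaroside most own rows of the blue genes lie below 0 while their opposite rows lie above.

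The 24 gene lists placed 32 of the 152 members, and 120 were in none. Over the 1307 genes the median log2 ratios were 0.21 and 0.06, and edgeR called 35.1% higher and 40.3% lower after FEBJ, and 21.7% higher and 23.8% lower after cynaroside. The immediate early and MAPK feedback list had 8 genes in the table, of which 6 rose and 0 fell after FEBJ, and 1 rose and 6 fell after cynaroside, with medians of 0.89 and -0.55. Its 3 members were PHLDA1, DUSP6 and IER5L. The endoplasmic reticulum folding list showed the reverse, with 1 rising and 7 falling after FEBJ and 6 rising and 0 falling after cynaroside among 9 genes, medians of -0.58 and 0.49, and the members SEC63 and ERO1A. Of 12 ribosome biogenesis genes 9 rose and 1 fell after FEBJ, but only 1 rose and 3 fell after cynaroside, and the list had members of each kind, WDR74, NVL and MDN1. All 8 matrix, collagen and protease genes fell after FEBJ, while 2 rose and 4 fell after cynaroside, and LAMA5 and MMP1 were the members. The lists for ATF4 targets, chaperones, G1/S and replication, glycolysis, NRF2, growth factor signalling and nuclear transport held no member. Some lists hold genes that were left out by name, such as FKBP4 among the chaperones. Their numbers of members may be lowered by that choice. The lists overlap with the choice of the members, so their counts are a description.

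By position, members were most frequent on chromosome 18, with 9 of 32 genes in the table (28.1%), and on chromosome 11, with 16 of 84 (19.0%). Among members that follow each other closely on a chromosome there were 9 pairs, of which 5 moved the same way, such as LPIN2 and MYOM1, and 4 the other way, such as GNG2 and ERO1A. Members held fewer counts than the other genes, with a median of 1226 over the 6 libraries against 1858, and ratios from fewer counts scatter more.

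Near the threshold, the values set the border and nothing else. Just inside, cynaroside was 1.303-fold lower for AHR, 1.309-fold for ADI1 and 1.309-fold for DAGLA. Just outside were DGAT2, at 5.05-fold higher after FEBJ and 1.295-fold lower after cynaroside, and FAM86C1P, at 2.14-fold and 1.298-fold. In the other direction, PKD1 was 1.81-fold lower and 1.303-fold higher, SRCAP 1.303-fold lower and 1.44-fold higher, and RPRML 1.305-fold lower and 1.97-fold higher. Outside were VSIG10, 1.44-fold lower after FEBJ and 1.2996-fold higher after cynaroside, MED14, at 3.71-fold and 1.295-fold, and RAP1GAP2, at 2.49-fold and 1.293-fold. Leaving out each library in turn, 49 of the 86 and 36 of the 66 passed in every run. A ratio moved by over 1.5 times in 21 members, all given above, and the direction reversed in 4 of them, ARHGEF19, CEBPA, DDX20 and SERPINB8.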

How the data were processed

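Counts per gene row were deposited by the authors for 6 libraries of total RNA from LX-2 cells. Per the submitters' processing notes, CASAVA 1.7, HISAT2, HTSeq 0.12.4 and DESeq2 1.38.0 were used with hg19; kit, strand setting and annotation release are not given in the sources used here. Each table has 62754 gene rows and 5 summary rows, left out here, of which reads outside every feature made up 87.4 to 88.3% of all counts. Opposite exons were found in GENCODE release 29 (GRCh38), which holds 58261 of the rows and gave 3398 opposite non-coding rows. The builds were not reconciled, so the chromosomes, neighbours and promoter coordinates given here are those of GRCh38 and not of hg19. Ratios were computed as described above. The counts of 1845 genes passing filterByExpr were tested with edgeR 4.0.16 (TMM, quasi-likelihood, group means, 3 residual degrees of freedom, threshold 0.05), checked on simulated data, with DESeq2 1.42.0 in R 4.3.3 as an alternative. The members, lists and role groups were chosen with earlier results of these data known. Named by rule were the 12 members per direction with the largest smaller shift, the 3 with the most counts, members of a list, and those nearest to the threshold; the rest were added for completeness. The values of some members and of a gene near the threshold are not reported here by name, and they remain in the counts.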

Additional observations from a re-analysis of the deposited data

How the results depend on the processing

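The number of genes higher after FEBJ and lower after cynaroside (86) was 43 with a ratio of 1.5, 123 with a ratio of 1.2, 131 with a minimum of 100 counts and 50 with a minimum of 1000 counts. The number lower after FEBJ and higher after cynaroside (66) was 26 with a ratio of 1.5, 113 with a ratio of 1.2, 93 with a minimum of 100 counts and 39 with a minimum of 1000 counts. The other settings (scaling by TMM, RLE or all gene rows, the mean of libraries, stronger non-coding rows, an overlap of 200 bp) gave 68 to 86 and 50 to 92. With the mean of libraries in place of pooling, 77 of the 86 and 59 of the 66 stayed. Leaving out each library in turn gave 84 to 99 and 65 to 71 genes, 116 to 128 and 88 to 114 members called by edgeR after FEBJ and after cynaroside, and 29 to 38 members whose own row moved along (37). DESeq2 called 114 and 85 members, against 126 and 111 with edgeR. A replicate block called 126 and 111. Whether the replicate numbers pair the libraries is not stated. Same-numbered libraries deviated with correlations of -0.04, -0.05 and 0.09, so no shared deviation was seen. With 2 libraries per group, and few counts in many members, small ratios are not resolved, and whether the spread is technical is not known.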
